A study of Mus musculus with 2 samples.

Results

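Integrins and the adhesion molecules they bind were described here through 10 genes chosen by name, Itgam, Itgb2, Itgal, Itgav, Itgb1, Itgb5, Itga4, Itga6, Icam1 and Vcam1, out of 19537 genes in the matrices. They were measured in microglia, the macrophages that reside in brain tissue, of PARK7/DJ-1 knock-out (KO) and wildtype littermate mice. Both groups had received lipopolysaccharide (LPS), a bacterial membrane component, at 4 µg per g of body weight by intraperitoneal injection 24 h before isolation. The KO line carries a gene-trap allele of Park7 and was backcrossed to C57BL/6NCrl, and the mice were 3 to 4 months old. Living CD11b+CD45int cells were sorted from brain and run through Drop-seq, in which barcoded beads catch transcripts by their 3′ ends, and a unique molecular identifier (UMI) on each copy lets single molecules be counted. Each genotype gave 1 library, labelled KO LPS and WT LPS and written KO and WT below, from 2 pooled mice, so that 1 library is the whole of a group. No test between the genotypes was therefore made, genotype and library cannot be told apart, and all intervals are 95% intervals that cover counting error only.

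Barcodes with at least 500 UMIs and at least 100 genes were counted as cells, which gave 320 KO cells and 1427 WT cells with medians of 963.5 and 1065 UMIs. The cells held 381305 and 1989011 UMIs, or 55.7% and 64.9% of their libraries, and no cell barcode was shared. Levels are UMIs of a gene in the summed cells of a library per 1000000 UMIs of those cells (CPM). Park7 was at 2.62 CPM (1 UMI) in KO cells and 162 CPM (323 UMIs) in WT cells. The microglial label held in both libraries: all 11 of 11 microglial markers were found, and their summed level was 29648 CPM in KO cells and 14735 CPM in WT cells. A list of 20 inflammatory response genes summed to 732 CPM in KO cells and 9448 CPM in WT cells, with 7 of its genes at 0 in KO cells. Neutrophil markers were at 0 for 7 of 7 genes in KO cells and at 70.9 CPM in WT cells, while choroid plexus markers summed to 2140 CPM in KO cells and 14.1 CPM in WT cells. Of the 816 choroid plexus UMIs in KO cells, 741 were in 1 cell, and 3 of 320 KO cells and 2 of 1427 WT cells held 3 or more of them. Astrocyte markers, with 1 of 6 genes at 0 in each library, summed to 370 CPM (311 to 436) in KO cells and 173 CPM (155 to 192) in WT cells. The part of these differences in the values below was not tested, except where a result is given without cells that held 3 or more marker UMIs of other types. Of astrocyte marker UMIs, 28.4% in KO cells and 28.8% in WT cells were in cells with 3 or more of them. Much of that RNA can therefore remain in such a result.

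Integrins are receptors of paired alpha and beta subunits that tie a cell to matrix proteins or to other cells, and a subunit reaches the surface only with a partner. The leukocyte integrins share the beta chain CD18, encoded by Itgb2, which pairs with CD11b (Itgam) as complement receptor Mac-1 and with CD11a (Itgal) as LFA-1. Itgb1, Itgav and Itgb5 encode the chains of matrix receptors, with Itga6 giving a laminin receptor and Itgav with Itgb5 a vitronectin receptor. Icam1 and Vcam1 encode immunoglobulin-family ligands on the opposing cell, Icam1 for the leukocyte integrins and Vcam1 for the integrin of Itga4 and Itgb1. Inflammatory signals are known to induce both ligands. In microglia, CD11b is the usual surface marker and takes part in phagocytosis of complement-coated particles.

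In RefSeq coordinates (GRCm38.p6, equivalent to mm10), Itgam lies at chr7:128062640-128118491 and Itgal at chr7:127296139-127335137. Itgb2 lies at chr10:77530329-77565708, Itgb1 at chr8:128685654-128733579 and Itgb5 at chr16:33829665-33949338. Another 3 alpha genes share a chromosome, Itga6 at chr2:71786886-71858427, Itga4 at chr2:79255426-79333114 and Itgav at chr2:83722303-83806917. Icam1 lies at chr9:21015940-21028814 and Vcam1 at chr3:116110020-116129688. A gene annotated on the opposite strand overlaps Itgav, Itgb5, Itga4, Itga6, Icam1 and Vcam1, and use of strand in counting is not given in the sources used here. Of these neighbours, Gm13684 at Itgav had 1 UMI in KO cells and 6 in WT cells, Cerkl at Itga4 had 0 in both, and the others were not among the genes of the matrices. On the same strand, Gm49368, annotated as protein-coding, overlaps Itgam and was not in the matrices. Of the noncoding RNA genes that overlap Itga6 on its strand, only Gm13663 was in the matrices, with 0 UMIs in both.

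RefSeq promoter windows were found for 6 of the 10 genes, Itgam, Itgav, Itgb1, Itgb5, Itga4 and Icam1. The 250 bases before the start are shown for Icam1, which was lower in KO cells, for Itgb5, which was higher, and for Itgam, the most abundant of the genes. Capitals mark matches on either strand to GGGNNNNNCC or GGAANTTCC (NF-kB type), TTCNNNGAA (the type bound by STAT factors) or GAGGAA (the core bound by PU.1, a myeloid factor). The windows are on the plus strand at chr9:21015690-21015939, chr16:33829415-33829664 and chr7:128062390-128062639.
Icam1: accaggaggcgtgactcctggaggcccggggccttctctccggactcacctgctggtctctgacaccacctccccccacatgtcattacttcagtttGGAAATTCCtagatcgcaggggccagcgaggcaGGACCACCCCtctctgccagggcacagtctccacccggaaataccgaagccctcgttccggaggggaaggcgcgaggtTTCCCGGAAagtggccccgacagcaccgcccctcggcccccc
Itgb5: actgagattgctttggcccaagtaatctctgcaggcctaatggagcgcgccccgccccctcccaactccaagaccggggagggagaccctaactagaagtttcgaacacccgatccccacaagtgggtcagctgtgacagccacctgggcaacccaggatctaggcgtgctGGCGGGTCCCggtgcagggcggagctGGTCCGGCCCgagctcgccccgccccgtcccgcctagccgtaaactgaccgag
Itgam: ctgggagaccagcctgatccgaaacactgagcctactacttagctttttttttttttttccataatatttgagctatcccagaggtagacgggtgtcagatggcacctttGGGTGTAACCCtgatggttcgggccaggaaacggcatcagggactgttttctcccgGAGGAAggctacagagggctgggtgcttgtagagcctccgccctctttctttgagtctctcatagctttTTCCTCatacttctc
Icam1 held 1 match to GGAANTTCC, found in 0.813% of the 32851 windows in the table, 153 bases before its start. It also held 1 match to TTCNNNGAA, found in 7.02% of windows, and 1 to GGGNNNNNCC. The last motif is in 45.8% of windows, and was matched by all 3 genes shown (in Itgam by overlapping matches on both strands). Itgam alone of these 3 held GAGGAA, at 84 and 15 bases before its start, a motif in 23.3% of windows. A match of letters is a description of the window and was not tied to binding or to any level here.

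Of the 10 genes, 8 had at least 20 UMIs over both libraries. Itgal (19 UMIs) and Itga4 (15 UMIs) did not, and no call was made for them. Icam1 and Vcam1, 2 of the 8 (25%), were at least 2-fold lower in KO cells, where 17.1% of the 9085 genes with that many UMIs were. None of the 8 was at least 2-fold higher, beside 12.9% of all genes. The median log2 ratio, KO over WT, was -0.26 for the 8 genes and 0.03 for all genes, whose middle 50% lay between -0.61 and 0.62. The sign of the difference was mixed: the interval of the ratio lay below 1 for 4 genes (Itgam, Itgb1, Icam1 and Vcam1), above 1 for 3 (Itgav, Itgb5 and Itga6) and held 1 for Itgb2. Summed over the 10 genes the levels were 3443 CPM in KO cells and 3604 CPM in WT cells.

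**Figure D1:**
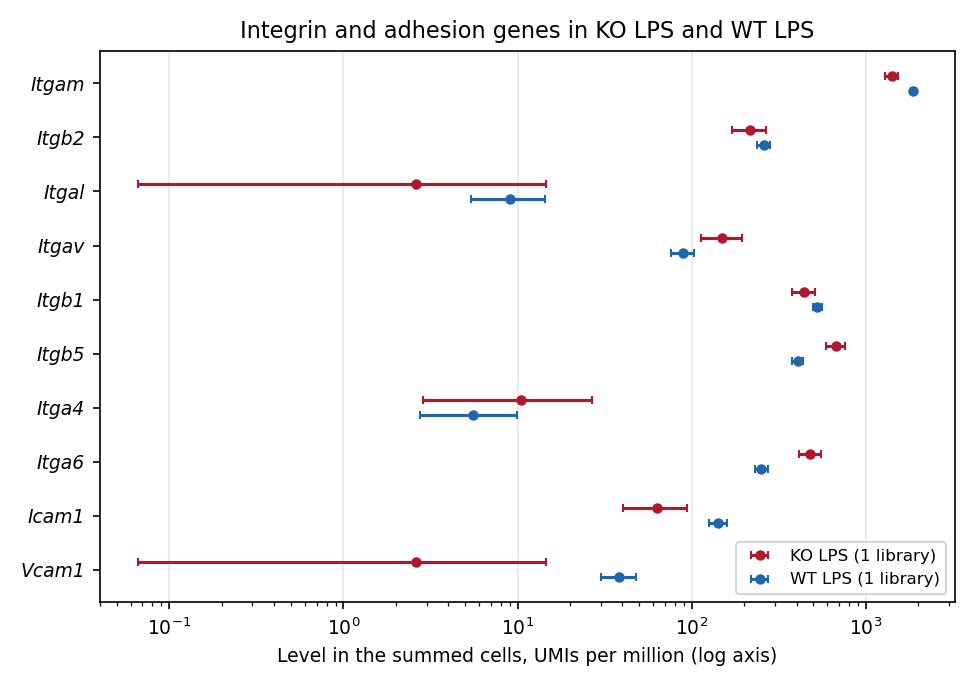
Level of each gene in CPM (log axis) in the summed KO cells (320, red) and WT cells (1427, blue), with exact 95% Poisson intervals. Itgav, Itgb5 and Itga6 lie to the right in KO cells, Itgam, Icam1 and Vcam1 to the left, and single UMIs of Itgal and Vcam1 in KO cells give the widest intervals.

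Of the leukocyte integrin genes, Itgam was lower in KO cells, and Itgb2 and Itgal gave no difference beyond counting error. Itgam was the most abundant of the 10 genes in both libraries, at 1406 CPM (536 UMIs) in KO cells and 1876 CPM (3732 UMIs) in WT cells. The ratio was 0.749 (0.683 to 0.820), a moderate difference that is larger than the counting error. The sort used CD11b, the protein of this gene, so all cells were chosen for it in both groups. In WT cells, 301 of the 3732 Itgam UMIs (8.07%) lay in the 68 cells with a UMI of a neutrophil marker. The same cells held from 5.21% (Itga6) to 6.78% (Itgav) of the UMIs of Itgb1, Itgb2, Itgb5, Itgav, Itga6 and Icam1, and 2.63% of Vcam1. Without cells rich in markers of other types, described further on, the log2 ratio of Itgam was -0.39 instead of -0.42. Its partner Itgb2 stood at 215 CPM in KO cells and 260 CPM in WT cells, a ratio of 0.827 whose interval of 0.647 to 1.05 holds 1. There were 6.54 UMIs of Itgam per UMI of Itgb2 in KO cells (5.17 to 8.35) and 7.22 in WT cells (6.58 to 7.93), and these intervals overlap. Itgal, the LFA-1 alpha chain, had 1 UMI in KO cells and 18 in WT cells. Its ratio of 0.290 had an interval from 0.00696 to 1.84, so that no difference was detectable at this depth.

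The matrix receptor chains Itgb5, Itgav and Itga6 were the genes with intervals above 1, higher in KO cells. Itga6 was at 480 CPM (183 UMIs) in KO cells and 251 CPM (499 UMIs) in WT cells, a ratio of 1.91 (1.61 to 2.27). Itgb5 was at 674 CPM (257 UMIs) and 406 CPM (807 UMIs), a ratio of 1.66 (1.44 to 1.91). Itgav, the chain that pairs with Itgb5, was at 149 CPM (57 UMIs) and 89.0 CPM (177 UMIs), a ratio of 1.68 (1.22 to 2.28). On the log2 scale the ratios were 0.94 for Itga6, 0.73 for Itgb5 and 0.76 for Itgav. The summed astrocyte markers were higher in KO cells too, and cells with such a UMI (88 of 320 KO cells and 235 of 1427 WT cells) held 35.0% of Itga6 UMIs in KO cells and 22.4% in WT cells, 31.9% and 26.8% of Itgb5 UMIs, and 36.8% and 30.5% of Itgav UMIs. Cells with a choroid plexus UMI (66 KO cells and 20 WT cells) held 26.2% of Itga6 UMIs in KO cells and 0.401% in WT cells, 31.9% and 1.73% of Itgb5 UMIs, and 26.3% and 0% of Itgav UMIs. Itgam and Itgb1, which were not higher in KO cells, had similar shares. Cells with an astrocyte UMI held 34.7% (KO) and 25.2% (WT) of Itgam UMIs, and 35.1% and 26.0% of Itgb1 UMIs. For cells with a choroid plexus UMI these were 30.0% and 1.18%, and 26.8% and 0.667%. Without the 31 KO cells and 73 WT cells that held 3 or more marker UMIs of other types, astrocytes and choroid plexus among them, the log2 ratios were 0.98 for Itga6, 0.73 for Itgb5 and 0.76 for Itgav. Itgb1, the beta chain that pairs with Itga6 and also with Itgav, went the other way, with 441 CPM in KO cells, 527 CPM in WT cells and a ratio of 0.835 (0.706 to 0.984). Itga4 had 4 UMIs in KO cells and 11 in WT cells, a ratio of 1.90 with an interval from 0.441 to 6.40. Scaling by the median ratio of 3800 genes with at least 20 UMIs in each library, in place of total UMIs, lowered the log2 ratios by 0.24. Under it the log2 ratio was 0.49 for Itgb5 and -0.66 for Itgam, the interval of the Itgb2 ratio came to lie below 1 (0.700, 0.548 to 0.885), and no 2-fold call changed.

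The proportions of the subunits differed between the libraries. Shares among subunits of one library do not depend on its depth, and since Drop-seq counts 3′ ends, a longer transcript gives no more UMIs. Among UMIs of Itgb1, Itgb2 and Itgb5 (507 in KO cells and 2373 in WT cells), Itgb5 took 50.7% (46.2 to 55.1) in KO cells and 34.0% (32.1 to 36.0) in WT cells. Itgb1 took 33.1% and 44.2%, and Itgb2 took 16.2% and 21.8%, a difference of -5.61 percentage points (KO minus WT, Newcombe interval -9.02 to -1.80). Itgb5 was thus the most abundant of these beta chains in KO cells and Itgb1 in WT cells. The same held in free RNA, described further on. It had 102 UMIs of Itgb5 and 71 of Itgb1 in the KO library, and 73 and 172 in the WT library. Among alpha chains, Itgam took 68.6% of UMIs in KO cells and 84.1% in WT cells, Itga6 took 23.4% and 11.2% and Itgav 7.30% and 3.99%. UMIs of Itga6 per UMI of its partner Itgb1 were 1.09 (0.879 to 1.35) in KO cells and 0.476 (0.427 to 0.530) in WT cells. For Itgav per Itgb5 they were 0.222 (0.163 to 0.297) and 0.219 (0.185 to 0.258), with intervals that overlap.

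**Figure D2:**
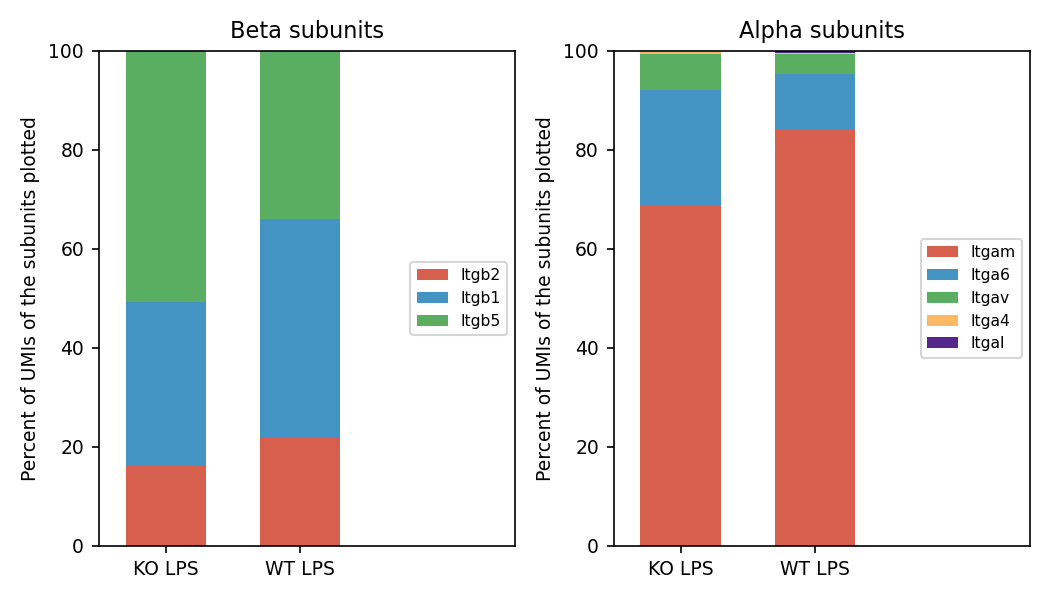
Percent of the UMIs of 3 beta chains (left) and 5 alpha chains (right) taken by each gene in the summed KO cells and WT cells, 1 library each. Itgb5 fills 50.7% of the beta bar in KO cells against 34.0% in WT cells, and Itga6 fills 23.4% of the alpha bar against 11.2%.

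The order of levels also differed. In KO cells it ran Itgam, Itgb5, Itga6, Itgb1, Itgb2, Itgav, Icam1, Itga4, then Itgal and Vcam1 with 1 UMI each. Itga6 and Itgb1 did not differ beyond counting error there, nor did the last 3. In WT cells it ran Itgam, Itgb1, Itgb5, Itgb2, Itga6, Icam1, Itgav, Vcam1, Itgal, Itga4. Itgb2 and Itga6 did not differ beyond counting error, nor did Itgal and Itga4. Icam1 stood above Itgav in WT cells (1.59 UMIs per UMI, 1.32 to 1.93) and below it in KO cells, where Itgav had 2.38 UMIs per UMI of Icam1 (1.45 to 4.0).

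Both ligand genes were lower in KO cells. In WT cells neither was above its level in free RNA, described further on, beyond counting error. Icam1, the ligand of LFA-1 and Mac-1, was at 62.9 CPM (24 UMIs) in KO cells and 142 CPM (282 UMIs) in WT cells, a ratio of 0.444 (0.280 to 0.674). Its 2-fold call ended in cells with at least 1000 UMIs, where the log2 ratio was -0.82 instead of -1.14. Vcam1, the ligand of the integrin of Itga4 and Itgb1, was at 2.62 CPM (1 UMI) in KO cells and 38.2 CPM (76 UMIs) in WT cells, a ratio of 0.0686 (0.00172 to 0.394). Vcam1 is best known from endothelium, and 2 of its 76 UMIs in WT cells were in cells with a UMI of an endothelial marker. Endothelial markers summed to 57.7 CPM in KO cells and 7.54 CPM in WT cells. Itga6 is also an endothelial gene, and 2 of its 183 UMIs in KO cells were in cells with such a marker.

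UMIs of these genes were thinly spread over cells. After every cell was thinned to 500 UMIs, no cell of either library had UMIs of more than 4 of the 10 genes. The mean number of these genes per cell was 1.39 in the KO library and 1.35 in the WT library, and 22.5% and 17.2% of cells had none. The share of cells with an Itgb5 UMI was 25.9% (21.2 to 31.1) in KO cells and 16.3% (14.4 to 18.3) in WT cells, and that of Itga6 was 21.3% (16.9 to 26.1) and 11% (9.43 to 12.7). For Itgam it was 46.9% (41.3 to 52.5) and 58.9% (56.3 to 61.4). Without thinning the shares were 48.8% and 35.3% for Itgb5, 38.1% and 23.7% for Itga6 and 67.8% and 81.1% for Itgam. For Itgb2 the thinned shares were 13.1% and 12.7%, for Itgb1 20.6% and 21.7% and for Itgav 6.88% and 4.91%. Icam1 UMIs were in 3.75% and 6.66% of cells and Vcam1 UMIs in 0.313% (1 of 320) and 1.61% (23 of 1427). Itgal UMIs were in 0 of 320 thinned KO cells, a count that with the floor of 3 allows a share of up to 0.938% of cells with a UMI at this depth (exact upper limit 1.15%), and in 0.631% of WT cells. Without thinning, Itgal UMIs were in 0.313% of KO cells (1 cell) and 1.26% of WT cells.

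These shares have to be read beside free RNA. Barcodes with 100 UMIs or fewer, with medians of 18 UMIs in the KO library and 75 UMIs in the WT library, served as the profile of RNA outside cells, though they may also hold broken cells. Droplets of 500 UMIs drawn from it would show Itgam in 62.2% of KO droplets and 78.3% of WT droplets, above the shares in cells. The share of cells with Itgam lay below background in both libraries, with intervals that do not overlap, so it is not read as expression, and a cell without a UMI is no cell without Itgam. By share, the interval in cells lay wholly above that of the background for Itgb2 in KO cells (background 5.62%, 3.60 to 8.32) and Itgb5 in WT cells (background 10.9%, 8.66 to 13.5). For Itgb5 in KO cells the background was 22.6%, and for Itga6 it was 16.6% in KO cells and 12.2% in WT cells. Icam1 had backgrounds of 1.75% and 5.39%. For Vcam1 in WT cells the background was 1.42% (0.650 to 2.67), beside 1.61% of cells. By level, CPM in cells over CPM in free RNA had an interval above 1 in KO cells for Itgb2 (1.86, 1.16 to 3.09), Itgb5 (1.31, 1.04 to 1.67) and Itga6 (1.32, 1.003 to 1.77), and in WT cells for Itgb5 (1.75, 1.38 to 2.26). It lay below 1 for Itgam in KO cells (0.722, 0.632 to 0.825) and WT cells (0.615, 0.572 to 0.660), and for Itgav in WT cells (0.585, 0.423 to 0.823). For Icam1 (1.28, 0.898 to 1.87) and Vcam1 (1.34, 0.670 to 3.04) in WT cells the interval held 1. The number of cells with UMIs of both chains of a pair was set beside the number that independent shares would give. Itgam and Itgb2 were together in 22 KO cells (19.7 if independent) and 104 WT cells (107 if independent). Itga6 and Itgb1 were together in 19 KO cells (14 if independent) and 24 WT cells (34.0 if independent). Of WT cells with an Itgb1 UMI, 7.77% had one of Itga6 (5.04 to 11.3), and of the other WT cells 11.9% did. In the KO library these shares were 28.8% (18.3 to 41.3) and 19.3%. Itgav and Itgb5 were together in 5 KO cells (5.71 if independent) and 8 WT cells (11.4 if independent).

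**Figure D3:**
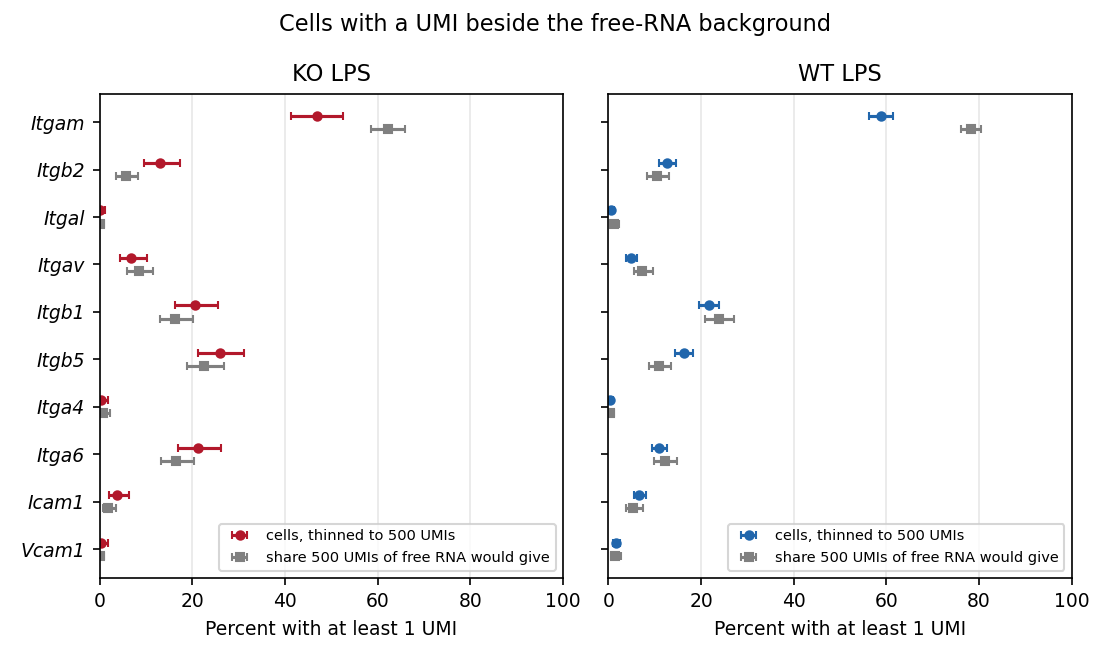
Percent of cells with at least 1 UMI of each gene after thinning to 500 UMIs (circles, exact 95% binomial intervals), and the percent that 500 UMIs of free RNA of the same library would give (grey squares). Itgam lies below its grey square in both libraries, whereas Itgb2 in KO cells and Itgb5 in WT cells lie above theirs.

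The libraries differed in how much inflammatory RNA their cells carried, so cells were also compared by their count of inflammatory UMIs. A count of 0 at 500 UMIs can also arise by sampling in a cell that carries such RNA. The inflammatory level is therefore not made equal between the libraries. After thinning to 500 UMIs, 241 of 320 KO cells and 204 of 1427 WT cells had no UMI of the 20 inflammatory genes, and 1 and 681 cells had 3 or more. Among WT cells, Icam1 was at 99.8 CPM in cells with none, 138 CPM in cells with 1 or 2 and 155 CPM in cells with 3 or more, the last over the first being 1.55 (1.004 to 2.49). Itgam was at 1689, 1862 and 1933 CPM in the same order, a ratio of 1.14 (1.03 to 1.28). For Itgb5 that ratio was 0.916 (0.733 to 1.15) and for Itga6 0.790 (0.598 to 1.05), both with intervals that hold 1. Between the libraries, in the cells with no inflammatory UMI, Itga6 was 1.69 times as high in KO cells (1.25 to 2.30) and Itgb5 1.52 times (1.18 to 1.96). Itgam had a ratio of 0.844 (0.734 to 0.971) there. Icam1 was at 62.9 CPM in KO cells and 99.8 CPM in WT cells, a ratio of 0.630 whose interval of 0.322 to 1.21 holds 1. Vcam1 had a ratio of 0.0934 (0.00213 to 0.674) from 1 and 9 UMIs.

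Microglial markers also differed between the libraries. Cells with 10 or more UMIs of the 11 microglial markers at 500 UMIs numbered 259 in the KO library and 336 in the WT library. Among them Icam1 was at 60.0 CPM in KO cells and 196 CPM in WT cells, a ratio of 0.307 (0.177 to 0.507). Itga6 had a ratio of 1.90 (1.48 to 2.44), Itgb5 of 1.57 (1.30 to 1.91) and Itgav of 2.06 (1.31 to 3.27). Itgb2 had a ratio of 0.662 (0.485 to 0.895) there, an interval below 1 that was not seen over all cells when scaled by total UMIs. In the WT library, cells with 10 or more of these UMIs had 1.67 times the Icam1 level of cells with 0 to 4 (1.17 to 2.41), 1.52 times the Itgb2 level (1.15 to 2.01) and 1.39 times the Itgb1 level (1.15 to 1.68), but 0.881 times the Itgam level (0.800 to 0.971). Leaving out the 31 KO cells and 73 WT cells with 3 or more UMIs of markers of other cell types changed no 2-fold call of the 8 genes.

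Each library pooled a female and a male mouse, and RNA from the sex chromosomes told part of the cells apart. In the KO library 200 cells had an Xist UMI and no UMI of a Y-linked gene, and 12 had the reverse. In the WT library these were 565 and 195 cells. A further 9 KO cells and 80 WT cells had both kinds of UMI, and 99 KO cells and 587 WT cells had neither. The split is thus incomplete, and these counts do not give the sex balance of the libraries. Within the WT library, cells with Y-linked UMIs only had 1.69 times the Itga6 level of cells with Xist UMIs only (355 against 210 CPM, 1.32 to 2.16). Itgb5 was 1.36 times as high in them (462 against 338 CPM, 1.11 to 1.68), and Icam1 was at 81.3 CPM against 151 CPM, a ratio of 0.540 (0.336 to 0.835). For Itgam the ratio was 1.03 (0.936 to 1.13). In the KO library, where 12 cells had Y-linked UMIs only, the same ratio was 0.280 (0.102 to 0.614) for Itgam, 0.673 (0.215 to 1.61) for Itga6 and 0.802 (0.341 to 1.61) for Itgb5. As each sex was 1 mouse in a library, sex and mouse cannot be told apart. Between the libraries, in cells with Xist UMIs only, Itga6 was at 514 CPM in KO cells and 210 CPM in WT cells, a ratio of 2.45 (1.94 to 3.09). Itgb5 had a ratio of 2.04 (1.68 to 2.47) and Itgav of 2.00 (1.31 to 3.03), so all 3 passed 2-fold there, and Icam1 had a ratio of 0.484 (0.282 to 0.789). In cells with Y-linked UMIs only, of which the KO library had 12, Itga6 was at 346 CPM (5 UMIs) and 355 CPM, a ratio of 0.976 (0.311 to 2.35). Itgam was at 415 CPM (6 UMIs) and 1955 CPM in those cells, a ratio of 0.212 (0.0777 to 0.465).

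**Figure D4:**
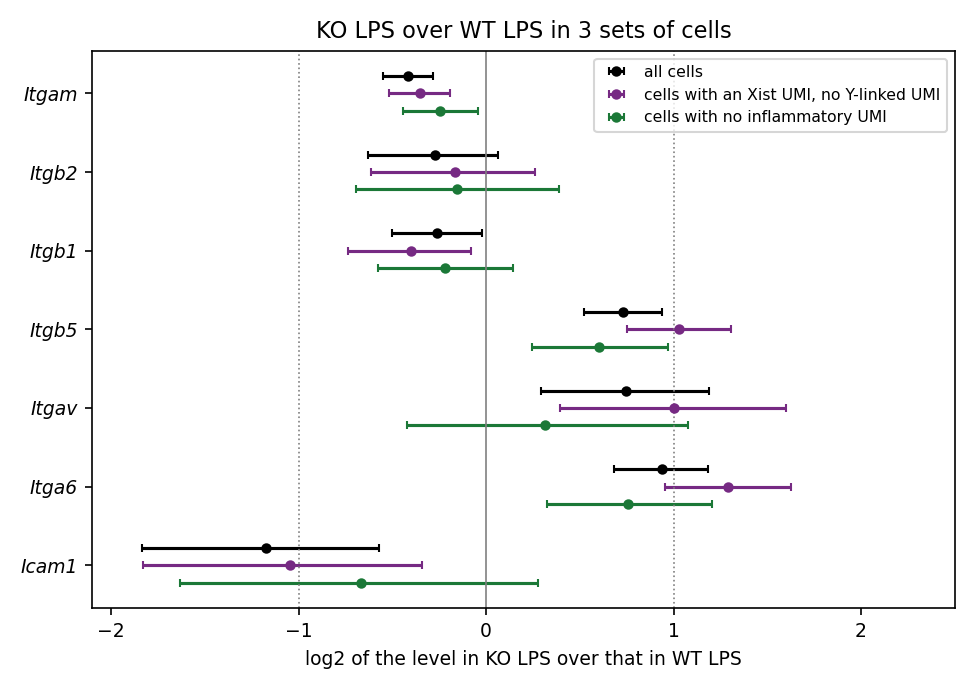
Log2 of the KO level over the WT level, with exact 95% intervals, for the 7 genes with enough UMIs to plot, in all cells (black), cells with Xist but no Y-linked UMI (purple) and cells without inflammatory UMIs (green). Dotted lines mark 2-fold. Itga6 and Itgb5 lie to the right of 0 in all 3 sets, Itgam lies to the left, and the green interval of Icam1 holds 0.

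A wider list of 150 adhesion genes was read beside the 10. Of these, 141 were in the matrices and 76 had at least 20 UMIs. Of the 76, 15 (19.7%) were at least 2-fold lower and 11 (14.5%) at least 2-fold higher in KO cells, near the 17.1% and 12.9% of all genes, and their median log2 ratio was -0.10. Of 19 other integrin subunits, 16 had under 20 UMIs or were not in the matrices. Itga9, an alpha chain that pairs with Itgb1, was at 176 CPM in KO cells and 31.7 CPM in WT cells, a ratio of 5.55 (3.87 to 7.95). Itga5, the fibronectin receptor chain, was at 7.87 CPM (3 UMIs) and 38.7 CPM (77 UMIs), a ratio of 0.203 (0.0410 to 0.617).

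Of 36 cytoplasmic activators and linkers with enough UMIs, 3 were lower and 4 higher by 2-fold, with a median log2 ratio of -0.06. Rapgef1, an exchange factor for the small GTPase Rap1, was the highest at 86.5 and 23.1 CPM, a ratio of 3.74 (2.32 to 5.98). Fgr, a Src-family kinase of myeloid cells, had 0 UMIs in KO cells and 185 (93.0 CPM) in WT cells, so that it was at least 11.8-fold lower against a floor of 3 UMIs in that library, while the exact interval of the ratio reaches 9.52-fold. Further genes of this list, picked after their values were seen, lay on both sides of 1. Tln1 (talin, which binds beta chains from inside) had a ratio of 0.676 (595 and 880 CPM), Fermt3 (kindlin-3) of 0.732 (265 and 362 CPM), Fyb (the adaptor ADAP) of 0.614 (1369 and 2231 CPM) and Skap2 of 0.559 (147 and 263 CPM). Apbb1ip (RIAM, which links Rap1 to talin) had a ratio of 1.35 (1054 and 779 CPM), Lims1 of 1.82, Parvg of 1.80, Vav1 of 1.31 and Cyth4 of 1.23. Syk (1.01), Rassf5 (0.960) and Cyth1 (0.916) had intervals that hold 1.

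Among 13 further immunoglobulin-family and junction genes, 2 were lower and 5 higher by 2-fold. Jam2, a junction molecule, was at 102 and 27.7 CPM, a ratio of 3.70 (2.39 to 5.68), and Cd48 at 44.6 and 106 CPM, a ratio of 0.422 (0.241 to 0.693). The 2-fold call of Cd48 (log2 ratio -1.21) ended in Xist-positive cells (-0.84), in Y-positive cells (-0.41) and without cells rich in markers of other types (-0.98). Of 16 selectin ligands and other adhesion receptors, 5 were lower and 1 higher. The one was Selplg, the P-selectin ligand PSGL-1, at 1728 and 615 CPM and a ratio of 2.81 (2.55 to 3.09). Cd44, the hyaluronan receptor, had 0 UMIs in KO cells and 84 in WT cells (42.2 CPM), at least 5.37-fold lower by the same floor, with an exact interval that reaches 4.27-fold. The list of matrix and soluble ligands also held proteases of the ADAM family, which made up 5 of its 8 genes with enough UMIs. The 2-fold call downward took in Adam8, Adam9, Fn1 and Spp1, of which all but Spp1 are named after their values were seen, and the call upward took in 0 of the 8. Fn1 (fibronectin) had 1 UMI in KO cells and 57 in WT cells, a ratio of 0.0915 (0.00228 to 0.531). Spp1 (osteopontin, a ligand of integrins with Itgav, Itga4 and Itga9) had 0 UMIs in KO cells and 197 in WT cells (99.0 CPM), at least 12.6-fold lower by the floor, with an exact interval that reaches 10.1-fold. Tgfb1, whose latent form is bound by integrins with Itgav, was at 184 and 102 CPM, a ratio of 1.80 (1.35 to 2.37).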

How the data were processed

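Microglia sorted as CD11b+CD45int from brains of LPS-treated mice were measured by Drop-seq in 2 libraries, 1 per genotype. For either library the authors deposited a table of unnormalised counts (UMIs) of each gene in 9999 barcodes, of which most are not cells. Where a gene had entries in a single library, its missing values in the other were read as 0. The submitters' processing notes name bcl2fastq 2.0, STAR, mm9 and mm10. The counting program, annotation and use of strand are not given in the sources used here.

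Counts were summed over cells and divided by their total to give CPM with pandas 2.3.3, numpy 2.4.6 and scipy 1.17.1 under Python 3.11.15. Poisson intervals were used for levels, conditional binomial intervals for ratios and Clopper-Pearson intervals for shares, all exact, at 95%. Molecules were tagged by UMIs, and the intervals cover counting error only. Log2 ratios used a prior count of 0.5. With 1 library per group no spread between replicates could be had and no test was run. The calculations were tested on simulated data. The difference of 2 shares was given with a Newcombe interval. The depth is 381305 and 1989011 UMIs in cells, so a gene at 0 in KO LPS may reach 7.87 CPM (3 UMIs).

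The 10 genes and all lists were chosen with earlier results of these data known. Besides these and Park7, the gene with the highest and the one with the lowest log2 ratio among those with at least 50 UMIs were named in each of 5 role groups of the wider list, and any others are said to be picked later. Older symbols were matched through a RefSeq table. Doublets were left in, and Scrublet (scanpy 1.11.5) served as an alternative that called 11 cells of KO LPS (3.44%) and 10 of WT LPS (0.701%). Other alternatives changed the cell threshold, the scaling, free RNA, single cells with most UMIs, cells with markers of other types, sex of origin and the thinning. Cells without inflammatory UMIs and cells rich in microglial UMIs were compared after seeing the data.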

Additional observations from a re-analysis of the deposited data

Results flagged for a closer look

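RNA in the barcodes that were not counted as cells (9679 in KO LPS and 8572 in WT LPS) entered no level of cells above. Those among them with the fewest UMIs gave the free RNA profile that was set beside the cells. For 2 of the 10 genes the ratio over the full set, KO library over WT library as control, had an interval above 1. Itgb5 was at 603 CPM in the KO library and 214 CPM in the WT library, a ratio of 2.82 (2.31 to 3.44), with 183 and 230 UMIs. Itga6 was at 415 and 286 CPM, a ratio of 1.45 (1.17 to 1.79). Itgam had a ratio of 0.647 (0.590 to 0.708) in the same barcodes, Icam1 of 0.571 (0.307 to 0.992), and Vcam1 had 0 UMIs there in the KO library and 33 in the WT library. Itgav (155 and 121 CPM) and Itga4 (13.2 and 7.44 CPM) were also higher in the KO library, with intervals that hold 1.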

How the results depend on the processing

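There were 12 alternatives for each log2 ratio, 2 of them chosen after seeing the data. Itgam, Itgb2, Icam1 (always lower in KO LPS) and Itgb5 (always higher) kept their sign in all 12. So did the log2 ratios of Itgav and Itga6, but in Y-positive cells only through the prior count of 0.5: their ratios of CPM there were 0.788 (0.0193 to 4.78) and 0.976 (0.311 to 2.35). Itgb1 and Vcam1 kept theirs in 11. In Y-positive cells (a Y-linked UMI and no Xist UMI, 12 in KO LPS) the log2 ratios were -2.12 for Itgam, -1.22 for Itgb2, 2.83 for Itgal, 0.22 for Itgav, 0.036 for Itgb1, 0.34 for Itgb5, 0.10 for Itga6 and 0.32 for Vcam1, with 0.16 for Itga5 and 0.71 for Cd44. Vcam1, Itgal, Itga5 and Cd44 have so few UMIs there that the prior count sets the sign, as it does for Itgav, Itga6 and Itgb1 (ratio of CPM 0.967, 0.411 to 1.95). The median, which is the value of Itgb1, was 0.036 and the Itgb2 share of beta chains differed by -13.0 percentage points in these cells. In Xist-positive cells Itgb5 was at 1.03 and Itga6 at 1.29, and 3 genes were at least 2-fold higher. Scaling by the median ratio gave -0.66 for Itgam and 0.49 for Itgb5. In cells with no inflammatory UMI Itgam was at -0.24 and Itgal at 1.33, and 0 genes were called lower, Vcam1 having too few UMIs to count. With 10 or more microglial UMIs Itga4 was at 3.36 and 1 gene, Itgav, was called higher. Cells of at least 1000 UMIs left 1 gene called lower, Vcam1. Without its top 3 cells Itga4 was at -1.52.

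Differences in the share of cells, in percentage points, were -5.10 for Itgb2, -6.31 for Itgb1, -8.26 for Icam1 and -3.75 for Vcam1 without thinning. At 1000 UMIs they were -5.44 for Itgam, -1.43 for Itgal, 17.3 for Itgb5, 18.8 for Itga6, -6.13 for Icam1 and -3.51 for Vcam1. For at least 2 UMIs they were 2.17 for Itgb5 and 2.70 for Itga6. The cause was not tested. Leaving out a replicate was not possible with 1 library per group. No paired analysis was possible because each group is 1 library.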
